A study of Mus musculus with 18 samples.

Results

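RAD21 sites of resting B cells were compared with those of 48 h-stimulated B cells, with 1 library of the later time point, 48 h replicate 2, left out. The study asked how binding of cohesin, followed through its subunit RAD21, differs before, during and late in the activation that induces class switching to IgG1. All B cells were purified from the spleens of C57BL/6 wild-type mice, with the cells of several young adult animals pooled in each replicate. The resting cells (0 h) were not stimulated, and the 48 h-stimulated and 96 h-stimulated cells were cultured with LPS and IL-4, the latter enriched for cells that had switched to IgG1. Every group was precipitated with the same RAD21 antibody and compared with input DNA when the authors called peaks. Resting and stimulated cells therefore differ by culture as well as by LPS and IL-4, and these cannot be told apart. The data hold no transcript levels, so the identity of the cells could not be checked against marker genes.

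Cohesin is a ring-shaped complex of SMC1, SMC3, a kleisin subunit (RAD21 in mitotic cells) and an SA subunit. It holds sister chromatids together, and in interphase it extrudes loops of chromatin, which often end where the zinc finger protein CTCF is bound. Most RAD21 peaks of mammalian cells lie at CTCF motifs, and others lie at promoters and enhancers. Activated B cells enter the cell cycle and change the genes they express within the first days of culture.

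Peaks of the 3 resting replicates and of 48 h replicates 1 and 3 that shared at least 1 bp were merged into 5021 sites, of 15225 sites when all 9 replicates of the series were merged. A site was lost when it had a peak in at least 2 resting replicates and in neither 48 h replicate, and gained when it had a peak in both 48 h replicates and in no resting replicate. By this rule 712 sites were lost, which is 14.2% of all sites and 40.4% of the 1762 sites in at least 2 resting replicates. The gained sites numbered 74, which is 1.47% of all sites and 11.6% of the 640 sites in both 48 h replicates. A further 449 sites, called kept here, had a peak in at least 2 resting replicates and in both 48 h replicates, 601 sites in at least 2 resting replicates had a peak in 1 of the 2 48 h replicates, and 3185 sites were in fewer replicates. These 786 lost or gained sites are described below. The rule asks for fewer lists in one direction than in the other, so its 2 counts cannot be set against each other.

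The replicates differed in length. Resting replicates 1, 2 and 3 held 2097, 821 and 3578 peaks, and 48 h replicates 1 and 3 held 1538 and 1563. Each peak carries a score from the authors' peak caller. Apart from an alternative with a score minimum, it is used here only to rank peaks within a list, as the percentile of its score (100 is the highest). Scores printed for single sites are those of the named list, and their scale may differ between lists. The same rule was therefore also applied to lists limited to their 821 highest scores, the length of the shortest list, which is called equal length below. A list gives the range and score of each peak and no read counts, and the depth behind a peak is unknown. Intervals given with shares are exact 95% binomial intervals and cover counting error only. The 48 h replicate that was left out stands apart, since 3.40% of its 5254 peaks held the motif described next and 46.4% held a tandem repeat, against 84.0 to 90.2% and 3.17 to 5.25% in the 5 replicates used.

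Lost and gained sites carried the same motif. A motif of 20 bases was learned from the 123 sites of odd-numbered chromosomes that had a peak in all 5 replicates, and its most frequent bases, ACCACTAGGGGGCGCTATAG, are of the form that CTCF is known to bind. A match was required to score as high as the top 5% of windows 1 kb from a site, on either strand, within 100 bp of the centre of the site. Of the lost sites 655 of 712 had a match (92.0%, interval 89.8 to 93.9), and of the gained sites 72 of 74 (97.3%, 90.6 to 99.7). The share was 88.0% in the 326 kept sites that were not used for learning (84.0 to 91.4) and 5.88% in windows 1 kb from sites on chromosomes not used for learning. At the score passed by 1% of windows, 66.2% of the lost sites had a match. The matches lay close to the centres, at a median distance of 20 bp in lost and kept sites and 22.5 bp in gained sites.

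The sequences of some lost and gained sites are shown to let the matches be read beside the scores given later. Each is mm9 sequence written 5′ to 3′ on the strand of the match, with the 20 bases of the match in capitals and 30 bases on either side. The first 5 are among the 12 lost sites described first below, and the next 5 are lost sites near genes of B cell function.
Cstf1, chr2:172203980-172204059, plus strand: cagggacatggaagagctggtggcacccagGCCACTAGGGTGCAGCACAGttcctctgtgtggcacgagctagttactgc
Parp11, chr6:127396493-127396572, minus strand: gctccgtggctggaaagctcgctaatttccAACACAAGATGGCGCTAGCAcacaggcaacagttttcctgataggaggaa
Cryaa, chr17:31822577-31822656, plus strand: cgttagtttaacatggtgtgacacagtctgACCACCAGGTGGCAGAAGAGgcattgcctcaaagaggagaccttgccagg
Atxn7l1, chr12:33965821-33965900, plus strand: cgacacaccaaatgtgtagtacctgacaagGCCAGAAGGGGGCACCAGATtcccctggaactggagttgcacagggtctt
Amz2, chr11:109302633-109302712, minus strand: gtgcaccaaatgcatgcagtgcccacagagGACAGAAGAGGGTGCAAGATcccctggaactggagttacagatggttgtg
Pax5, chr4:44685521-44685600, plus strand: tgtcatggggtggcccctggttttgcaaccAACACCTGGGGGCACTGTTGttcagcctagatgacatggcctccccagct
Ikzf1, chr11:11642896-11642975, minus strand: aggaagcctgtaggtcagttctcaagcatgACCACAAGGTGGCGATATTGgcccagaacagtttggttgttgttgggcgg
Pou2f2, chr7:25918266-25918345, plus strand: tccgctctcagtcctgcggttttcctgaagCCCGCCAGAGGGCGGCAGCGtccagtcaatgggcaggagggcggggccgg
Il21r, chr7:132782560-132782639, minus strand: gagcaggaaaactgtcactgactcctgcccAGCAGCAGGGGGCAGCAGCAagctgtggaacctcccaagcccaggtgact
Cd83, chr13:43960105-43960184, plus strand: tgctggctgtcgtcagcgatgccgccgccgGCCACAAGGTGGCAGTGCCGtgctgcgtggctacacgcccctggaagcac

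Of the gained sites, the next 5 are shown, for their scores or for the B cell genes nearest to them.
Ppp6c, chr2:39228800-39228879, minus strand: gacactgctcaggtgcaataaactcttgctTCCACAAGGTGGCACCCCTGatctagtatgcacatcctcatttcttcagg
Sykb, chr13:52807484-52807563, plus strand: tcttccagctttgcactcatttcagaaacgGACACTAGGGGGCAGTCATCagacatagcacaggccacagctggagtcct
Adamts7, chr9:90101477-90101556, plus strand: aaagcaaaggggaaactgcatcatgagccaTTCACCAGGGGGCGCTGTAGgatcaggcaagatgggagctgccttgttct
Cd180, chr13:103455482-103455561, minus strand: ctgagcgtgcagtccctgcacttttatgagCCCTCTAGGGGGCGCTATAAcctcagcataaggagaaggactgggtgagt
Cd79b, chr11:106191196-106191275, plus strand: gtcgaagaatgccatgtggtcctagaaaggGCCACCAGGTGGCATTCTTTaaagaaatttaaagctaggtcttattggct

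Read against the most frequent bases, the matches of Cd180 and Adamts7 differed at 3 and 4 of 20 positions, and those of Ikzf1, Pax5 and Il21r at 4, 6 and 9. The sequences of Atxn7l1 and Amz2 shared a run of 18 bases, tcccctggaactggagtt, which is known from the B2 family of mouse short interspersed repeats. This run, chosen because the 2 sequences shared it, was found on either strand within 100 bp of the centre of 3 of the 712 lost sites, these 2 included. It was also found at 1 of 449 kept sites, 1 of the 601 sites with a peak in 1 48 h replicate and 2 of the 3185 sites in fewer replicates. No gained site held it, and 4 of 10042 windows 1 kb from sites did. The share was 0.421% of lost sites (0.0870 to 1.23) and 0.223% of kept sites (0.00564 to 1.23), with intervals that overlapped.

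Most losses rested on the 2 longest resting lists. The 712 lost sites comprised 129 with a peak in all 3 resting replicates, 477 in replicates 1 and 3, 82 in replicates 2 and 3, and 24 in replicates 1 and 2. At a single site, 3 of 3 resting replicates against 0 of 2 gives p = 0.1 by Fisher's exact test (two-sided), the smallest value this design allows, and 2 of 3 against 0 of 2 gives p = 0.4. No site was therefore tested as changed on its own, and the lost and gained sites are called by the rule.

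**Figure D1:**
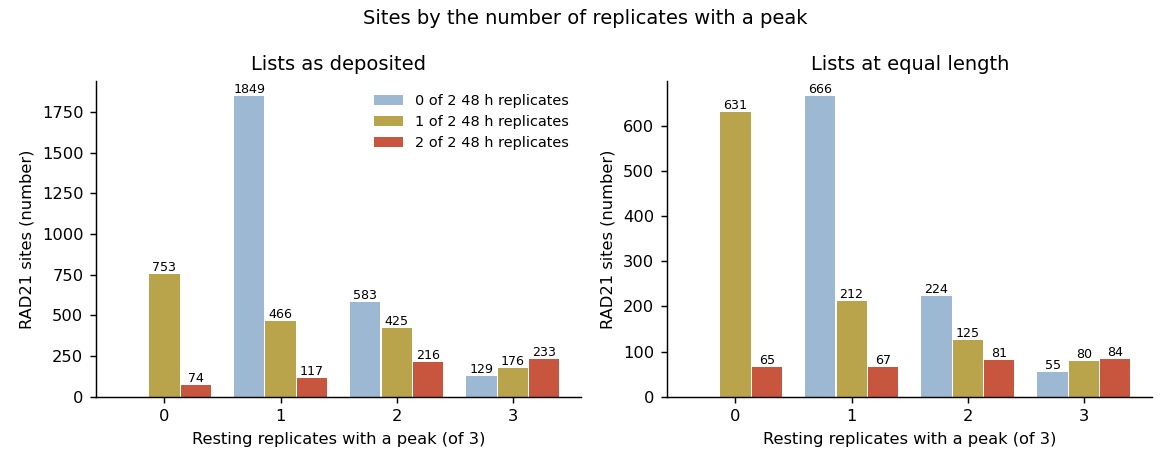
Number of RAD21 sites (y axis) by the number of resting replicates with a peak (x axis) and of 48 h replicates with a peak (colour), with the lists as deposited (left) and at equal length (right). With the lists as deposited, 583 and 129 sites in 2 and 3 resting replicates had no 48 h peak, and 74 sites had a peak in both 48 h replicates and in no resting replicate.

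With the same demand in both directions, that is in both of 2 resting replicates and in neither 48 h replicate against the reverse, the counts depended on which resting replicates were used. Without resting replicate 2, 606 sites were lost and 76 gained. Without resting replicate 1 the counts were 211 and 94, and without resting replicate 3, the longest list, they were 153 and 169. With the lists as deposited, the direction of the difference in counts thus turned when resting replicate 3 was left out. The totals differed as well. Sites in both resting replicates numbered 701, 1552 and 585 without resting replicate 1, 2 and 3, against 640 in both 48 h replicates. Without resting replicate 3, the counts were thus 153 of 585 and 169 of 640, a turn in counts and not in shares of equal totals.

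At equal length the direction of the counts did not turn. The 5 lists then made 2290 sites, of which 279 were lost (12.2% of all, and 43.0% of the 649 in at least 2 resting replicates) and 65 gained (2.84% of all, and 21.9% of the 297 in both 48 h replicates). With 2 resting replicates, 125, 136 and 128 sites were lost and 90, 86 and 86 gained, without resting replicate 1, 2 and 3 respectively. The lost sites were out of 359, 382 and 346 sites in both resting replicates, and the gained sites out of 297 each time. These 3 comparisons share lists and are not independent of each other.

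The equal-length calls also moved against the longer lists. Of the 279 sites lost at equal length, 121 (43.4%) had a lower-ranked peak in a full 48 h list, and of the 65 gained sites 44 (67.7%) had one in a full resting list. Of the 712 sites lost in the full lists, 158 stayed lost at equal length, 275 had no site there and 279 fell into another class. Both lengths called 26 sites lost with a peak in all 3 resting replicates, and 21 of the 74 gained sites stayed gained. No lost site had the centre of a 48 h peak within 500 bp, and 3 had one within 1 kb. The rule bars 48 h peaks that overlap a lost site, so part of the first count was fixed in advance.

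At equal length, sites shared by a pair of resting replicates were found less often in a 48 h list than in the third resting list. There, the 346 to 382 sites of a resting pair had a peak in the third resting list in 57.3 to 63.3% of cases (3 values, mean 60.5%). They had a peak in a 48 h list in 44.8 to 51.2% (6 values, mean 47.5%), and the 2 ranges did not overlap. In 96 h lists of the same length the share was 42.5 to 54.3% (9 values, mean 46.9%), a range that holds all 6 values of the 48 h lists. In the other direction, the 297 sites of the 48 h pair had a peak in a resting list in 52.5 to 54.9% (3 values), and in a 96 h list in 50.5 to 58.2%. With the lists as deposited, the ranges for resting pairs overlapped, at 34.7 to 92.0% in the third resting list and 43.2 to 58.3% in a 48 h list, the lowest value being that of the shortest list, resting replicate 2. These values share lists with each other and were not tested. Sites of a resting pair were thus also missing from another list of the same condition. In the left-out 48 h replicate 2 the share was 4.18 to 4.71%.

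**Figure D2:**
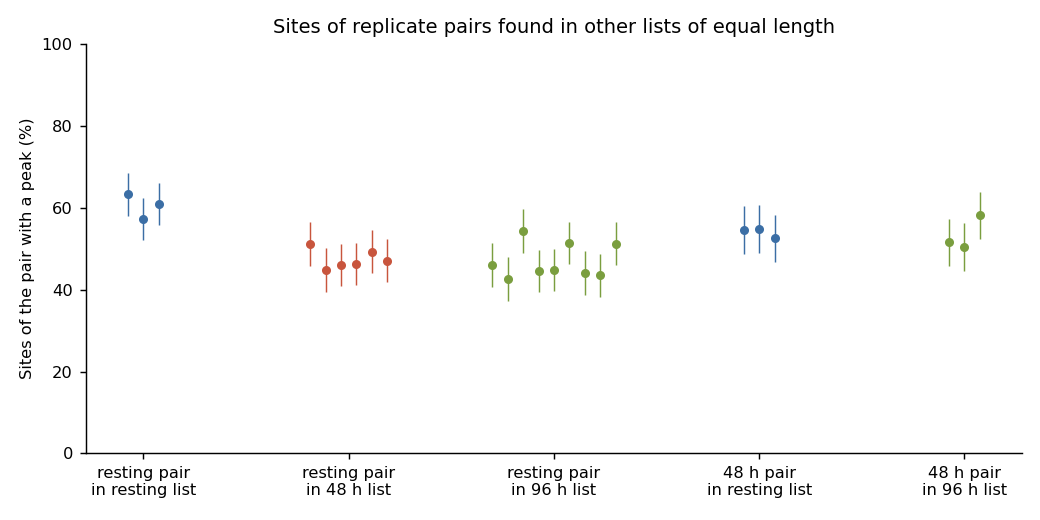
Share of the sites of 2 replicates that had a peak in another replicate list (y axis, %), with every list at its 821 highest scores. Each point is 1 pair looked up in 1 list, bars are exact 95% binomial intervals, and the points for resting pairs lie at 57.3 to 63.3% in resting lists and at 44.8 to 51.2% in 48 h lists.

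The score of the resting peaks moved with the loss. When the 1762 sites in at least 2 resting replicates were divided into 5 equal groups by the median percentile of their resting scores, 55.8% of the lowest group were lost (interval 50.5 to 61.1), then 50.4%, 44.6% and 34.4%, and 16.8% of the highest group (13.0 to 21.1). At equal length the share went from 58.5% in the lowest group to 19.4% in the highest. The median resting percentile was 47.5 at lost sites, 73.0 at kept sites and 45.8 over all sites with a resting peak. In the pooled resting list the median percentile was 78.7 at lost sites, 92.3 at kept sites and 63.2 over all sites with a peak there. Lost sites were thus of lower rank than kept sites, but not than all sites with a resting peak. The part of rank in the loss near any gene was not tested.

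**Figure D3:**
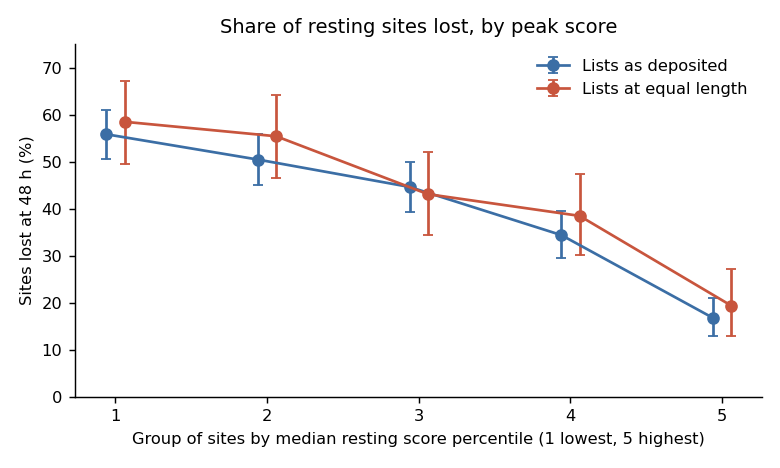
Share of sites in at least 2 resting replicates that were lost at 48 h (y axis, %) in 5 equal groups by the median resting score percentile (x axis), with the lists as deposited (blue) and at equal length (red). Bars are exact 95% binomial intervals, and the share falls from 55.8% to 16.8% and from 58.5% to 19.4%.

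The lists of 96 h-stimulated cells were not used to choose the sites, and most lost sites had a peak there. A peak in at least 1 of the 3 96 h replicates was found at 647 of 712 lost sites (90.9%, interval 88.5 to 92.9), against 446 of 449 kept sites (99.3%), 73 of 74 gained sites and 80.4% of all sites. By replicate the share of lost sites with a 96 h peak was 41.6%, 63.2% and 85.8%, and that of kept sites 76.8%, 90.9% and 98.0%, in replicates 1, 2 and 3. The 3 lists held 2807, 4552 and 8579 peaks, so the share moved with the length of the list. Lost sites were lower than kept sites also within each of the 5 groups by resting score. In the lowest group (percentiles 1.31 to 34.6), 2 or all 3 of the 96 h replicates had a peak at 53.8% of 197 lost sites (46.6 to 60.9). The share was 92.6% of 27 kept sites (75.7 to 99.1). In the highest group (80.1 to 99.9) it was 89.8% of 59 lost (79.2 to 96.2) and 97.8% of 178 kept sites (94.3 to 99.4), with intervals that overlapped. Resting scores still varied within a group, and the part of rank was not tested.

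Gained sites lay between these classes, with a 96 h peak at 74.3%, 74.3% and 94.6% in replicates 1, 2 and 3. The authors' pooled lists, made from the merged reads of a time point, gave a peak at all 712 lost sites at 0 h, at 266 of them (37.4%) at 48 h and at 684 (96.1%) at 96 h. The pooled 48 h list contains the reads of 48 h replicate 2, and 446 lost sites had no peak in it. It had a peak at 26.4% of lost sites in the group of lowest resting scores and at 57.6% in the highest. For kept sites these shares were 96.3% and 100%. Of the 74 gained sites, 32 had a peak in the pooled resting list.

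A few lost sites had no 96 h peak either. They numbered 65 (9.13% of lost sites, interval 7.12 to 11.5), against 3 of 449 kept sites and 19.6% of all 5021 sites. Among the 129 lost sites in all 3 resting replicates there were 6, named here after their values were seen, near Cdk8, Nup62, Klf13, 3930402G23Rik, Elmo1 and Slc28a3. The site 3427 bp before Nup62 lies in intron 1 of Il4i1, an amino acid oxidase gene that IL-4 induces in B cells, and scored 13.6, 11.4 and 14.9 in the resting replicates. It had no peak in the pooled 48 h list. Its scores were 40.8 in the pooled resting list and 7.99 in the pooled 96 h list, whose scales may differ. The site in intron 2 of Cdk8, the kinase of the Mediator complex, scored 15.6, 10.4 and 16.7 in the resting replicates. It had no motif match. The left-out 48 h replicate 2, which held few motif matches, had a peak there (24.5) and so does not share the loss. The pooled 48 h list, made with that replicate, scored 19.2 at the site.

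Peaks at transcription starts made up a smaller share of the 48 h lists. Within 1 kb of the start of a protein-coding transcript lay 8.06%, 8.40% and 8.13% of the peaks of resting replicates 1, 2 and 3, and 5.27% and 5.57% of the peaks of 48 h replicates 1 and 3. The groups did not overlap, and the means were 8.20% ± 0.182 (SD, n = 3) and 5.42% ± 0.212 (SD, n = 2). The difference of −2.78 percentage points had p = 0.1 in an exact two-sided permutation test, the smallest value that 3 against 2 allow, and an adjusted p of 0.5 over the 5 measures compared. At equal length the shares were 7.06%, 8.40% and 8.65% against 4.26% and 5.24%, with p = 0.1 again by the exact test. In the 96 h replicates, which the comparison did not use, they were 6.13%, 6.20% and 6.78% with the lists as deposited, between the other time points, and 6.70%, 6.21% and 7.19% at equal length, where the highest lay above resting replicate 1.

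The number of peaks, the share of peaks with a motif match, the share with a tandem repeat and the median peak width overlapped between the groups. Their adjusted p was 0.8 in the exact permutation test for each of the 4. On the log10 scale the resting lists had a mean length of 3.26 ± 0.324 (SD, n = 3), and the 48 h lists one of 3.19 ± 0.00495 (SD, n = 2). The median peak width was 195, 151 and 189 bp in the resting replicates and 188 and 162 bp in the 48 h replicates.

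Sorted by class, 67 of 712 lost sites lay within 1 kb of a start (9.41%, interval 7.37 to 11.8), as did 26 of 449 kept sites (5.79%, 3.82 to 8.37) and 380 of all 5021 sites (7.57%). Of the 74 gained sites none did, which allows a share of up to 4.86% by the exact interval, and at equal length 1 of 65 did. The intervals of lost and kept sites overlapped. With lists of equal length the shares were closer, at 7.17% of lost (4.43 to 10.9), 6.06% of kept (2.94 to 10.9) and 6.81% of all sites. Read the other way, 48.9% of the 137 sites at starts in at least 2 resting replicates were lost (interval 40.3 to 57.6) and 37.3% of the 332 sites over 50 kb from a start (32.1 to 42.8), with intervals that overlapped. At equal length these shares were 44.4% and 37.1%, again with overlapping intervals. By location, the 712 lost sites were in introns (262 sites), between genes (352), in 3′UTRs (20), in coding exons (19) and in 5′UTRs (14), and 45 were in promoters, the 1 kb before a start. In this order the shares were 36.8%, 49.4%, 2.81%, 2.67%, 1.97% and 6.32% of lost sites. They were 35.3%, 54.6%, 1.93%, 1.77%, 0.896% and 5.44% of all sites, and 30.3%, 61.9%, 1.56%, 0.891%, 0.891% and 4.45% of kept sites.

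**Figure D4:**
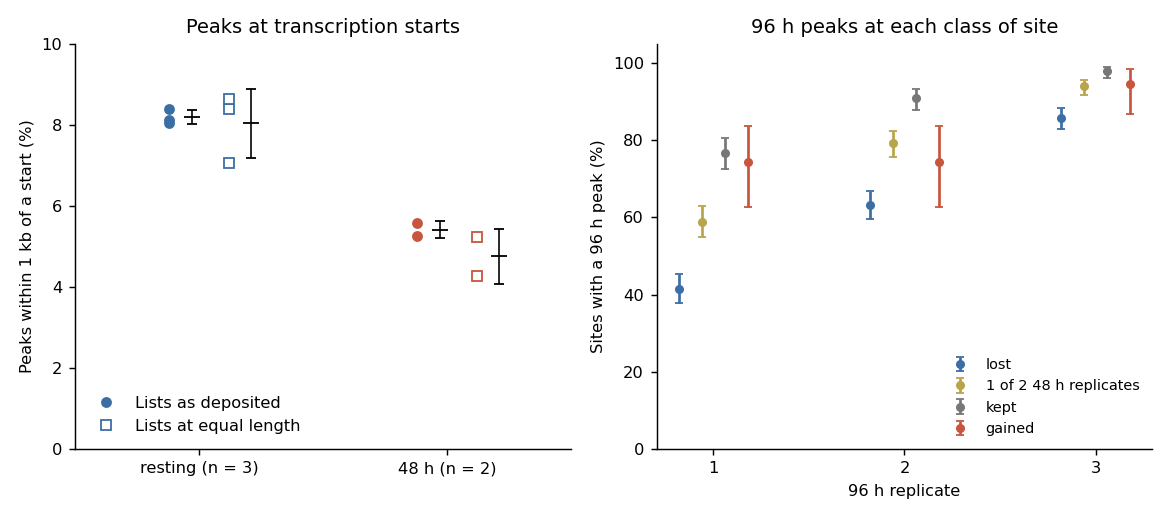
Left, share of each replicate's peaks within 1 kb of a transcription start (y axis, %), for resting and 48 h replicates, with the lists as deposited (filled circles) and at equal length (open squares), beside the mean ± SD. Right, share of sites with a peak in each 96 h replicate (y axis, %), by class of site, with exact 95% binomial intervals, where lost sites lie at 41.6%, 63.2% and 85.8%.

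Of the 26 sites called lost with a peak in all 3 resting replicates at both list lengths, the 12 with the highest median resting percentile are described next. Some lost sites outside this choice ranked higher, such as a second site near Cryaa, with a peak in 2 resting replicates and a median percentile of 98.0, and that near Il21r given below. The 12 lay at a range of positions, with 9 of the 12 within a gene or its promoter. The highest of them, within intron 2 of Tk1 and 1066 bp before the start of its neighbour Afmid, scored 17.1, 17.2 and 21.6 in resting replicates 1, 2 and 3 and had no peak in 48 h replicates 1 and 3. Tk1 encodes thymidine kinase, an enzyme of the nucleotide salvage pathway that rises in dividing cells. The site had a peak in each 96 h replicate, with scores of 17.2, 28.5 and 30.3.

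The site in intron 5 of Cstf1, a subunit of the cleavage stimulation factor of mRNA 3′ processing, scored 25, 9.08 and 20.8 in the resting replicates. It had no peak at 48 h, in the replicates or in the pooled list, and scored 15.9, 28.5 and 50.2 at 96 h. The site 26356 bp before Dennd4a scored 22.8, 11.3 and 20.1 and was the only one of the 12 without a motif match.

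Of the 12 sites 3 lay within 1 kb of a start. The promoter site of Ddx24, a DEAD-box RNA helicase, was 210 bp before the start and scored 16.2, 18.3 and 20.1 in the resting replicates. The site 126 bp before the start of Tor2a, a member of the torsin ATPases, lies in the 3′UTR of Ttc16 and scored 20.1, 12.2 and 20.8. The promoter site of Parp11, a mono-ADP-ribosyltransferase, was 341 bp before the start and scored 19.3, 11.1 and 20.8. All 3 were weak or absent in 96 h replicates 1 and 2, where Ddx24 scored 6.95 and 7.83, Tor2a scored 6.45 and 5.95, and Parp11 had no peak. In 96 h replicate 3 they scored 19.6, 24.2 and 19.7.

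The other sites of the 12 lay near Lamp3, A930011G23Rik, Mical3, Atxn7l1, Cryaa and Amz2, and their resting scores were 15.7 to 20.1, 13.8 to 21.1, 11.7 to 31.7, 9.93 to 22.2, 12.5 to 19.6 and 8 to 25.5 respectively. Lamp3 encodes a lysosomal membrane protein, Mical3 a flavoprotein monooxygenase that acts on actin, and Cryaa a crystallin of the lens. Each of these 6 had a peak in 96 h replicates 2 and 3, and Mical3, Cryaa and Amz2 also in 96 h replicate 1. The pooled 48 h list, made with 48 h replicate 2, had a peak at most of the 12 sites. These lay near Afmid, Dennd4a, Ddx24, Lamp3, A930011G23Rik, Atxn7l1, Cryaa and Amz2, at pooled scores of 4.33 to 10.01. The sites near Cstf1, Tor2a, Parp11 and Mical3 had none.

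No gene was the nearest of 3 or more lost sites, 23 genes were nearest to 2 and 666 to 1. The genes with 2 included Cxcr4, Rara (a retinoic acid receptor), Tgfb3 and Tgfbr2 (a ligand and a receptor chain of the TGF-beta pathway), named after their values were seen. The lost sites of the 129 in all 3 resting replicates that lay within 1 kb of a start numbered 10, among them those at 2900060B14Rik, Tor2a, Ubxn11, Parp11, Pou2f2, Fam38a, Fbxo47, Ddx24 and Ergic1. Their lowest resting scores were 7.08 at Pou2f2 and 8 at Ubxn11 and Fam38a, and all 10 had a peak in 96 h replicate 3.

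**Figure D5:**
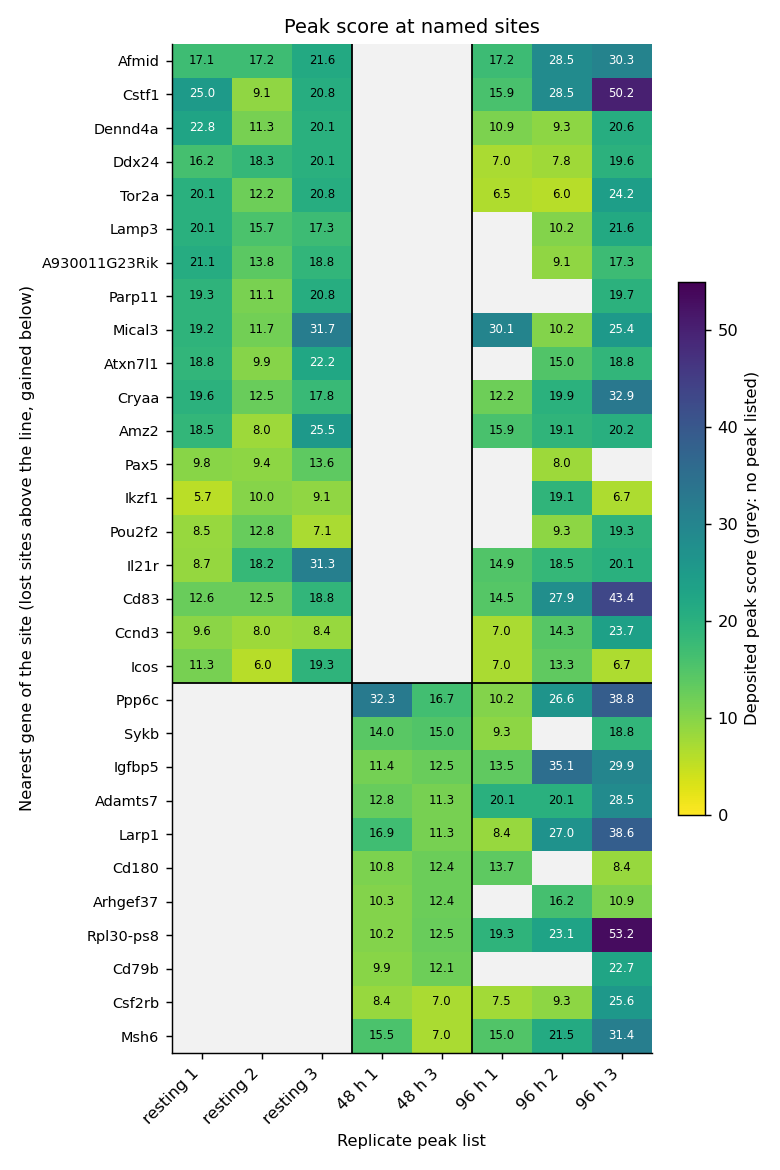
Deposited peak score (colour and printed number) at 30 named sites, by nearest gene (y axis) and replicate list (x axis), with grey where the list has no peak. The 19 lost sites above the line have scores in all 3 resting replicates and none in the 48 h replicates, the 11 gained sites the reverse, and most of both have a score in 96 h replicate 3.

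Genes of B cell function were counted from lists chosen by function. Of the 3936 genes nearest to any site, 689 (17.5%) were nearest to a lost site and 74 (1.88%) to a gained site. Among the genes nearest to a site in at least 2 resting replicates, the 689 were 43.3% of 1590. The counts of genes near lost sites below are read against this share. Gained sites have no resting peak, so this share does not apply to genes near them. The 1.88% is a low base for those genes, since it includes genes near sites that could not be called gained. Of the sites in both 48 h replicates 11.6% were gained, and the genes near such sites were not counted. Genes near gained sites are therefore only named.

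Among 20 transcription factors of B cell identity, 12 were nearest to a site in at least 2 resting replicates and 8 of these to a lost site, namely Pax5, Tcf4, Ikzf1, Pou2f2, Sfpi1, Irf8, Bcl11a and Ets1. By sites the share was lower, since 8 of the 21 sites near these 12 genes were lost, and 8 genes were also nearest to a site with a peak in 1 or both 48 h replicates. The share of sites was close to that of all sites in at least 2 resting replicates, 40.4%.

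Pax5 encodes the factor that maintains B cell identity and is shut off in plasma cells. Its lost site in intron 5, chr4:44685442-44685663 and 37727 bp into the gene, scored 9.77, 9.42 and 13.6 in resting replicates 1, 2 and 3. It had no peak in 48 h replicates 1 and 3 and scored 9.81 in the pooled 48 h list. At 96 h it scored 8 in replicate 2 and had no peak in replicates 1 and 3. At equal length it was no longer in at least 2 resting lists.

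Ikzf1 encodes Ikaros, a zinc finger factor of lymphoid development, and its site in intron 3 scored 5.7, 9.99 and 9.08. Pou2f2 encodes OCT2, an octamer-binding factor of B cells, and its site 830 bp before the start scored 8.47, 12.8 and 7.08. Neither had a peak in any 48 h list used here, pooled list included, and both had a peak in 96 h replicates 2 and 3. Neither was called lost at equal length.

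Homing and adhesion genes were the list with the largest share of genes near lost sites among those with at least 5 genes counted. All 5 of its 18 genes that were nearest to a site in at least 2 resting replicates were nearest to a lost one, at 6 of 10 sites. At equal length the site of Ccr7 stayed lost and the other 5 had no site. The genes were Itgb7, Cxcr4, Ccr7, S1pr1 and Selplg, which encode an integrin chain, 2 chemokine receptors, the receptor by which lymphocytes leave lymphoid organs and a selectin ligand. With 5 genes and a list chosen with earlier results known, the count is a description.

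The lost sites of these 5 genes had a peak in 2 resting replicates. Of these, 3 lay at a start. The site 375 bp before the start of Cxcr4 scored 11.6 and 7.9 in resting replicates 1 and 3, 4.03 in 48 h replicate 2 and 21.7 in 96 h replicate 3. The site 183 bp before the start of Ccr7 scored 8.96 and 16.2 in resting replicates 2 and 3 and 5.08 in 96 h replicate 2, and it had no motif match. The pooled 48 h list had a peak at the Ccr7 site, with a score of 6.08. The site 124 bp after the start of S1pr1 scored 12.5 and 5.47 in resting replicates 1 and 3 and 8.36 in 96 h replicate 3. Each of these 3 sites had a peak in a single 96 h replicate.

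Of 24 cytokine receptor genes 9 were counted and 5 were nearest to lost sites, Il4ra, Il21r, Ifnar2, Tnfrsf1b and Tgfbr2, at 6 of 12 sites. The site 35555 bp from the start of Il21r, the receptor for the T cell cytokine IL-21, had the highest median resting percentile of the listed genes' sites in all 3 resting replicates. It scored 8.72, 18.2 and 31.3 in the resting replicates and 14.9, 18.5 and 20.1 at 96 h, and stayed lost at equal length. The pooled 48 h list had a peak there, with a score of 9.77. The gained site in intron 4 of Csf2rb, the common beta chain of the receptors for GM-CSF, IL-3 and IL-5, scored 8.41 and 6.95 in 48 h replicates 1 and 3. It had no site at equal length.

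The lists of other processes had 0 to 9 genes nearest to a site in at least 2 resting replicates. Of the antigen receptor list 9 genes were counted, and Plcg2 was nearest to a lost site. Of its 18 genes nearest to any site, Cd79b and Sykb, the annotation's name for Syk, were nearest to gained ones. The LPS receptor and NF-kB list had Tnfaip3 near a lost site, with 4 genes counted, and Cd180 near a gained site, with 10 genes nearest to any site. Of the IL-4 list 1 of 4 genes counted (Il4ra), of the plasma cell list 1 of 3 (Creb3l2), of the cell cycle list 2 of 5 (Ccnd3 and Cdkn1a) and of the antigen presentation list 2 of 4 (H2-DMa and Cd83) were nearest to lost sites. Genes of class switch and DNA break repair had no site in at least 2 resting replicates, and Msh6, the 1 gene of the list nearest to any site, was nearest to a gained site. Of the cohesin and CTCF genes 1 was counted and none was near a lost or gained site. Of the lists of cells that the preparation could hold beside B cells, 2 of 3 genes counted of the T cell list (Ctla4 and Icos) and 0 of 2 of the myeloid list were near lost sites.

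Among these, sites in all 3 resting replicates lay near Cd83, Ccnd3 and Icos. The site 79597 bp from the start of Cd83, a surface protein that rises on activated B cells, scored 12.6, 12.5 and 18.8 in the resting replicates. It scored 14.5, 27.9 and 43.4 at 96 h and 8.41 in the pooled 48 h list, and stayed lost at equal length. The site in intron 1 of Ccnd3, a D-type cyclin, scored 9.57, 7.98 and 8.41, and that 22853 bp before Icos, a costimulatory receptor of T cells, scored 11.3, 5.96 and 19.3. At equal length the Ccnd3 site fell into another class and the Icos site stayed lost.

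The study also followed Prdm1, which encodes the repressor BLIMP1 of plasma cells, and Zfp386. Neither gene had a peak within 5 kb in any of the 5 replicates, so no loss or gain could be read there. The pooled resting list had peaks at both, with scores of 7.53 and 8.76 at Prdm1 and 10.1 at Zfp386, and 96 h replicate 3 scored 5.95 and 9.08 there.

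Of the 74 gained sites, 21 (28.4%, interval 18.5 to 40.1) lay over 50 kb from a start, against 17.4% of lost sites (14.7 to 20.4), 21.8% of kept sites and 20.3% of all sites. The latter 2 shares lie within the interval of the gained sites. The highest lay 146791 bp before the start of Ppp6c, a catalytic phosphatase subunit, and scored 32.3 and 16.7 in 48 h replicates 1 and 3. It also had a peak in 48 h replicate 2, with a score of 8.40, none in the pooled resting list, and scores of 10.2, 26.6 and 38.8 at 96 h.

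The site 115348 bp downstream of the start of Sykb, the kinase that carries the antigen receptor signal, scored 13.98 and 14.96 in the 48 h replicates and 9.46 in the pooled resting list. The site 28121 bp before Cd180, a Toll-like receptor relative that modulates the LPS response of B cells, scored 10.8 and 12.4 and had no pooled resting peak. The site 15099 bp before Cd79b, the Ig-beta signalling chain of the antigen receptor, lies in intron 14 of Scn4a and scored 9.86 and 12.1. All 3 stayed gained at equal length, and at 96 h the Cd79b site had a peak in replicate 3 alone.

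The remaining gained sites of the highest 8 lay near Igfbp5, Adamts7, Larp1, Arhgef37 and Rpl30-ps8, with 48 h scores of 10.2 to 16.9. Each had a peak in 96 h replicates 3 and 2, at scores of 10.9 to 53.2 in replicate 3. Of the 5 sites 4 had a pooled resting peak, with scores of 8.44 to 16.2, and Igfbp5 had none. The gained site 25903 bp before Msh6, a mismatch repair gene, scored 15.5 and 6.95 at 48 h and fell into another class at equal length.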

How the data were processed

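RAD21 ChIP-seq of splenic B cells was analysed from 12 peak lists in mm9, 1 for each of 9 replicates and 1 pooled list for each of 3 time points. Per the labels and the study's methods, the authors used Bowtie 2 for alignment, reduced each set of reads to the same number of unique positions, and ran MACS 2 with input DNA as control and 1 cut-off on the false discovery rate. The deposited unit is the score of the peak caller (column 5), whose statistic is not given in the sources used here. It was used only to rank peaks, apart from the alternative with a score minimum, which applied the same minimum to all lists. The 9 input libraries entered only through peak calling and were not used here on their own. No column of per-sample values was left unused (0).

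Peaks of different lists sharing 1 bp were merged, and sites were called lost or gained as the report states. The members and gene lists were chosen with earlier results of these data known. Nearest genes, starts and locations came from GENCODE release M1 for NCBIM37, the assembly of mm9, with 22232 protein-coding genes by centre of the site, where the study used RefSeq. All listed genes were matched, 2 through synonyms. Named were the 12 lost sites with the highest median resting percentile among those in all 3 resting replicates at both list lengths, the 8 gained sites with the highest lower 48 h percentile (those also gained at equal length first), lost or gained sites of the gene lists in all replicates of their time point (up to 3 a list), the loci the study followed and genes nearest to 3 or more lost sites. Other genes were named after their values were seen. The results for 2 genes are not reported here.

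Groups of 3 and 2 replicates were compared by an exact permutation test over 10 arrangements, with Benjamini-Hochberg adjustment over 5 measures and a threshold of 0.05. Nothing in the labels says how far the animals behind the replicates differ, and p-values measure the spread between these libraries. Runs of 20 or more bases that repeated a unit of 4 or fewer were counted as tandem repeats. The methods were tested on simulated data. The tools were scipy 1.17.1 and numpy 2.4.6 under Python 3.11.15, with pysam 0.24.0 for sequence and matplotlib 3.10.9 for plots. Alternatives covered the overlap, the score minimum, the list length, 48 h replicate 2, the motif level, the starts and each replicate left out.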

Additional observations from a re-analysis of the deposited data

How the results depend on the processing

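The number of lost sites (712) was 129 when all 3 resting replicates were required, 446 when the pooled resting list had to have a peak and the pooled 48 h list none, 279 at equal length and 321 with lists of at most 1538 peaks. The number of gained sites (74) was 25 with scores of at least the median of 10.19, 128 with lists of at most 1538 peaks and 134 with 48 h replicate 2 put back. Leaving out 1 replicate gave 153 to 1027 lost and 76 to 452 gained sites. Lost sites fell to 211 and 153 without resting replicates 1 and 3, and gained sites rose to 169 without resting replicate 3 and to 449 and 452 when 48 h replicate 3 or 1 decided alone. With a resting replicate left out the count was 125 to 136 lost sites at equal length, a setting chosen after seeing the data.

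The share of lost sites with a motif match (92.0%) was 66.2% at the stricter level and 91.0 to 94.8% without 1 replicate. The share with a 96 h peak (90.9%) was 95.3% with the score minimum, 94.6% at equal length and 91.4 to 94.8% without 1 replicate. The share within 1 kb of a start (9.41%) was 13.5% with the starts of all annotated genes, 6.91% with the score minimum, 7.17% at equal length and 7.19 to 9.57% without 1 replicate. Of the values compared between time points, the difference in log10 number of peaks (−0.07) was 0.10 with 48 h replicate 2 put back and −0.247 to 0.0725 without 1 replicate, and the difference in median width (−3.33 bp) was 4.5 bp with the score minimum and −17 to 9.67 bp without 1 replicate. Without 1 replicate the difference in the share of peaks with a motif match (−1.73 points) ran from −4.26 to 0.81 and that in tandem repeats (0.61) from −0.0299 to 1.25. The cause was not tested. The difference in the share at starts kept its direction in every alternative, −2.93 to −2.63 points without 1 replicate. With a replicate block over replicates 1 and 3, the log10 number of peaks differed by −0.247, and no call changed. The labels give no shared batch for a number, and with 2 pairs the exact test could not pass the threshold. No read counts were used. The authors had reduced each set of reads to the same number of unique positions, and why the lists still differed in length was not tested.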
